A study of Mus musculus with 8 samples.

Results

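The BH3-only genes encode the proteins of the BCL2 family that start the mitochondrial pathway of apoptosis. They were taken as 8 mouse genes, *Bid*, *Bad*, *Bik*, *Bmf*, *Hrk*, *Bcl2l11*, *Bbc3* and *Pmaip1*, and their probes were found through the RefSeq accession that the array files give for each probe. All 8 genes were on the array, out of 19751 gene symbols that could be matched, and they were represented by 9 of the 39429 probes. *Bad* had 2 probes and each of the other genes had 1. A BH3-only protein carries a single short helix, the BH3 domain, with which it docks into the groove of pro-survival proteins such as BCL2, BCL-xL and MCL1. In doing so it frees or directly switches on BAX and BAK, which then make pores in the outer mitochondrial membrane and let cytochrome c out to activate caspases. Many BH3-only genes are controlled at the level of transcription by stress, by loss of growth factors or by p53, while BID and BAD are controlled mainly by cleavage and phosphorylation of the protein.

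The measurements come from AtT20 cells, a mouse line derived from a pituitary corticotroph tumor that secretes ACTH. In the 4 control samples the cells were kept without an agonist, and in the 4 HX630 samples they received 10 μM HX630, a synthetic agonist of the retinoid X receptors (RXRs), in both cases for 48 hr in multiwell plates and in medium with a low content of stripped serum. The labels name no vehicle for the control cells and do not say whether the samples of a group were separate cultures, so that the p-values measure only the spread between these samples, which may be technical. The RNA of each sample was labelled with Cy3 and hybridized to an array of its own. A signal is given below as the log2 of the processed spot intensity minus the 75th percentile of its array, so that 0 stands for the 75th percentile, and it does not allow one probe to be ranked against another.

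On each array, 69.7% to 73.5% of probes exceeded the background clearly, and the 75th percentile of the intensity ranged from 1335 to 1862 on the control arrays and from 1802 to 1900 on the HX630 arrays. All 6 corticotroph markers, *Pomc* among them, were detected on every array. Their summed linear signal, in units of the 75th percentile, was 302 to 377 in the control and 219 to 229 with HX630. The sum does not stand for each marker. *Neurod1* (log2 fold change 0.72) and *Crhr1* (1.11) were called higher and *Pcsk1* (-2.06) lower with HX630. *Pomc*, *Tbx19* and *Pitx1* were lower but not called. *Prl* and *Tshb*, of 7 markers of other pituitary cells, were not detected on any array, and the summed signal of the 7 was 0.330 to 0.498 in the control and 0.317 to 0.372 with HX630. *Cdh5*, *Pdgfrb* and *S100b*, of 7 markers of endothelial, stromal, blood and folliculostellate cells, were not detected either, and the sums were 0.268 to 0.322 and 0.193 to 0.220. *Gh* and *Pecam1*, both dim, were the markers of other cells that were called lower with HX630. The part of these markers in the results was not tested. All control arrays were on 1 slide and all HX630 arrays on the other, so that slide and treatment cannot be told apart.

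Of the 8 BH3-only genes, 7 were well above background on all 8 arrays, and *Pmaip1* was not detected on any. With HX630, 5 of the 7 measured genes rose (*Bmf*, *Bcl2l11*, *Hrk*, *Bid* and *Bad*) and 2 fell (*Bik* and *Bbc3*), each at an adjusted p below 0.01 in limma. The changes were small. The largest in each direction were a rise of *Bmf* to 1.32-fold and a fall of *Bik* to 74.6% of the control signal, and no gene passed the fold change of 1.5 that the study's methods set. A gene is described here as called only when it passed both thresholds. None of the 7 tested genes was called, against 18.6% of all 28553 tested probes, of which 7.47% were called higher and 11.1% lower. All 7 had an unadjusted p below 0.05 in limma, and the methods' t-test also called 0 of them, before and after adjustment. By the adjusted p alone, 20.2% of all tested probes were higher and 25.3% lower with HX630, 45.5% in all. For each of the 7 genes the ranges of the HX630 and control arrays did not overlap, which was so for 55.7% of all tested probes. The RNA was taken from whole wells, so that fewer cells with a transcript and less of it per cell cannot be told apart.

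**Figure D1:**
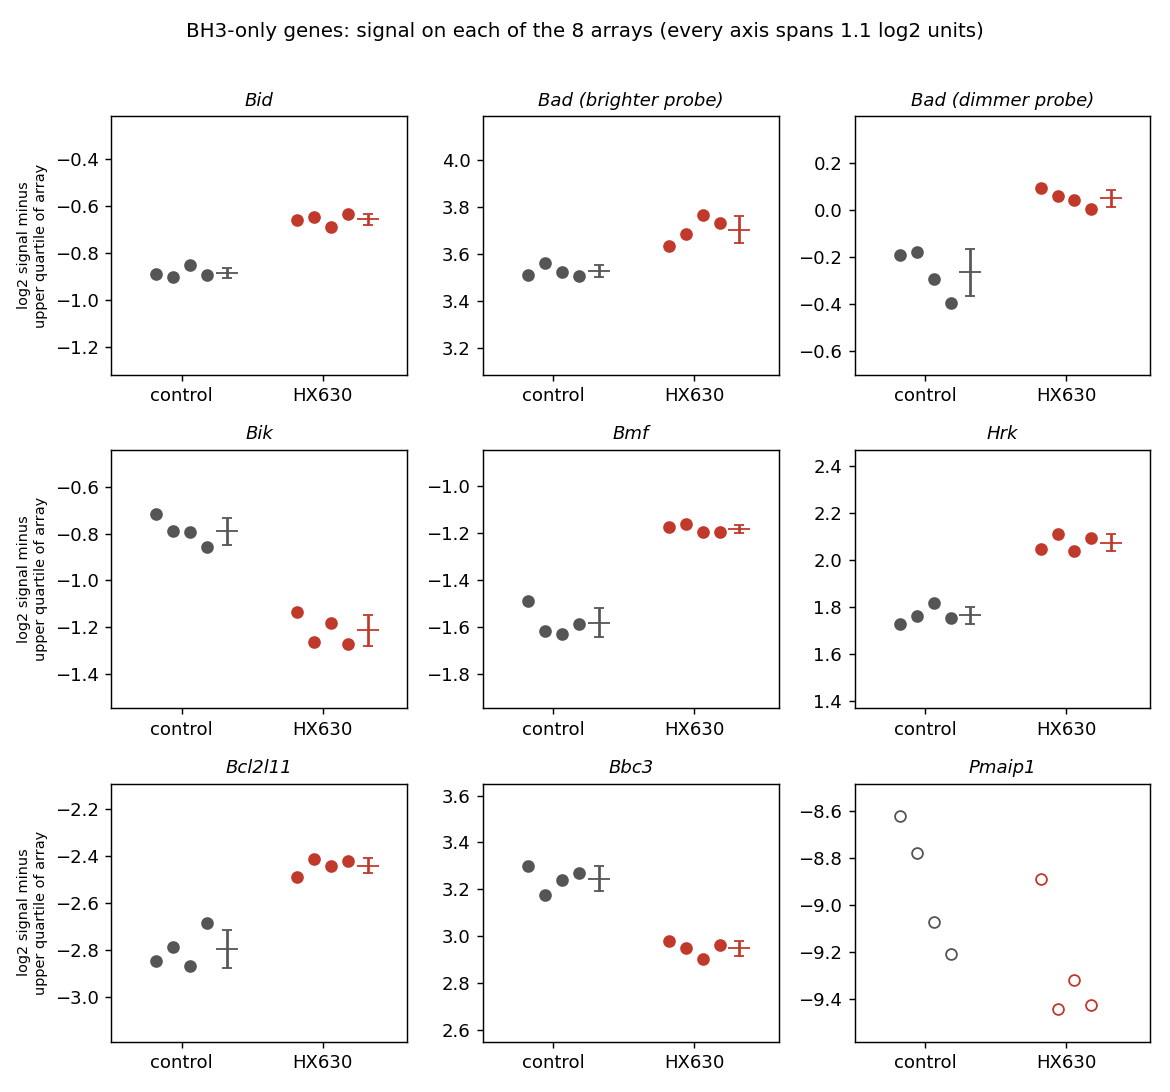
Signal of each BH3-only gene on each of the 8 arrays, as log2 processed intensity minus the 75th percentile of the array (vertical axis), for control (grey) and HX630 (red) samples. Filled points are arrays on which the probe was well above background, open points are arrays on which it was not, and the bars beside the points give the mean and SD of 4 arrays. Every axis spans the same number of log2 units. *Bid*, *Bad*, *Bmf*, *Hrk* and *Bcl2l11* were higher on every HX630 array, *Bik* and *Bbc3* were lower on every HX630 array, and *Pmaip1* was not detected.

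BIM, PUMA and BID can bind BAX and BAK directly as well as all the pro-survival proteins, and are often grouped as direct activators. *Bcl2l11* encodes BIM, which is bound to the cytoskeleton in healthy cells and mediates death after loss of growth factors. Its probe (A_51_P484880, NM_207680) gave signals of -2.85, -2.79, -2.87 and -2.69 on the control arrays and of -2.49, -2.42, -2.44 and -2.42 on the HX630 arrays. All HX630 arrays were above the highest control array. With means of -2.80 ± 0.0820 (SD, n = 4) in the control and -2.44 ± 0.0335 (SD, n = 4) with HX630, *Bcl2l11* had a log2 fold change of 0.36 ± 0.0476 (SE, 95% confidence interval 0.25 to 0.47, adjusted p = 3.80e-04).

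*Bid* encodes a cytosolic protein that caspases cut into its active, truncated form, which links death receptors to mitochondria. The signals of its probe (A_52_P574653, NM_007544) were -0.89, -0.90, -0.85 and -0.90 in the control and -0.66, -0.64, -0.69 and -0.63 with HX630. The arrays of each group lay close together and the groups did not overlap. *Bid* rose by 0.23 ± 0.0306 (SE on the log2 scale, 95% confidence interval 0.16 to 0.30, adjusted p = 3.94e-04), or 1.17-fold.

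*Bbc3* encodes PUMA, a classical product of p53 that is also induced independently of p53. Unlike the other genes of this group it was lower in HX630-treated cells. Its probe (A_51_P248122, NM_133234) gave 3.30, 3.18, 3.24 and 3.27 on the control arrays and 2.98, 2.95, 2.90 and 2.96 on the HX630 arrays. The lowest control array was still above the highest HX630 array. The signal of *Bbc3* fell by 0.30 ± 0.0383 (SE on the log2 scale, adjusted p = 3.12e-04) to 81.4% of the control. This fall depended on how the arrays were processed. The log2 fold change was -0.13 with normexp background correction (adjusted p = 0.0749 with an offset of 50 and 0.0860 with an offset of 16) and -0.065 on scaling to the spike-in probes (adjusted p = 0.389), and under none of these did it pass the test.

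The other members are regarded as sensitizers, which act mainly by occupying the groove of pro-survival proteins. *Bmf* encodes a protein held by the actin and myosin cytoskeleton until the cell detaches or is stressed, and it changed most among the genes that rose. The control arrays gave -1.49, -1.62, -1.63 and -1.59 and the HX630 arrays -1.18, -1.16, -1.20 and -1.20 (probe A_55_P2029106, NM_138313). The HX630 arrays differed from each other by less than the control arrays did, and none reached down to the controls. The rise of *Bmf* was 0.40 ± 0.0393 (SE, 95% confidence interval 0.31 to 0.49, adjusted p = 6.89e-05), which is 1.32-fold.

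*Hrk*, also known as harakiri, is expressed mainly in the nervous system and its protein binds BCL-xL and BCL2. Its signals were 1.73, 1.76, 1.82 and 1.75 in the control and 2.05, 2.11, 2.04 and 2.10 with HX630 (probe A_55_P2083559, NM_007545). The groups were apart on every array. *Hrk* rose by 0.31 ± 0.0354 (SE on the log2 scale, adjusted p = 1.59e-04), or 1.24-fold.

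BAD binds BCL2, BCL-xL and BCL-w, and growth factor signaling keeps it inactive through phosphorylation. The brighter probe of *Bad* (A_55_P1962234, NM_007522) gave 3.51, 3.56, 3.53 and 3.51 in the control and 3.63, 3.68, 3.77 and 3.73 with HX630. Its dimmer probe (A_65_P16603) gave -0.19, -0.18, -0.30 and -0.40 in the control and 0.093, 0.057, 0.043 and 0.0012 with HX630. On both probes every HX630 array was above every control array. The log2 fold change was 0.18 by the brighter probe (SE 0.0386, adjusted p = 0.00502) and 0.31 by the dimmer probe (SE 0.0550, adjusted p = 0.00162). The change of the dimmer probe exceeded that of the brighter one by 0.14, which did not pass a two-sided exact permutation test over the 8 arrays (p = 0.114, smallest possible 0.0286). *Bad*, by its brighter probe, had the smallest change of the 7 genes, and this probe missed the adjusted p of 0.01 when control replicate 1, 3 or 4 or HX630 replicate 2, 3 or 4 was left out, with log2 fold changes of 0.16 to 0.20 over all 8 omissions and an adjusted p of at most 0.0177.

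*Bik* encodes a BH3-only protein that resides largely at the endoplasmic reticulum. It fell with HX630 by about as much as *Bmf* rose. The signals were -0.72, -0.79, -0.79 and -0.86 on the control arrays and -1.14, -1.26, -1.18 and -1.27 on the HX630 arrays (probe A_51_P117794, NM_007546). All HX630 arrays were below the lowest control array. On the log2 scale *Bik* fell by 0.42 ± 0.0471 (SE, adjusted p = 1.39e-04), to 74.6% of the control signal.

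*Pmaip1* encodes NOXA, which binds mainly MCL1 and A1 and is another classical target of p53. Its probe (A_51_P477121, NM_021451) failed the detection threshold on all 8 arrays. The processed intensity was 3.39, 3.09, 3.46 and 2.84 on the control arrays and 3.81, 2.65, 2.87 and 2.76 on the HX630 arrays. On the same arrays the dimmest probe that was well above background had an intensity between 8.92 and 18.1, so that all 8 values of *Pmaip1* were under what the arrays could measure, and no fold change is given.

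As a group, the 7 measured BH3-only genes had a median log2 fold change of 0.23, where all 15320 tested genes had a median of -0.03. Of the direct activators 2 were higher and 1 was lower by the adjusted p, and of the measured sensitizers 3 were higher and 1 was lower, so that each group held changes in both directions. The order of the rises, from *Bmf* (0.40) over *Bcl2l11* (0.36), *Hrk* (0.31) and *Bid* (0.23) to *Bad* (0.18), was not firm between neighbours, whose 95% confidence intervals overlapped. In size the changes were in the middle of those on these arrays. The change of *Bik* was exceeded by 33.5% of all tested probes, that of *Bmf* by 35.6%, and that of the brighter probe of *Bad* by 66.1%. The 95% confidence interval of every member lay between -0.585 and 0.585, which are the log2 values of the 1.5-fold threshold.

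The distance between 2 genes on the same arrays does not depend on a scaling factor that is applied to the whole array. Each of the 5 genes that rose was compared in this way with *Bik* and with *Bbc3*. The log2 fold changes differed by 0.47 (*Bad* and *Bbc3*) to 0.82 (*Bmf* and *Bik*) over the 10 pairs. The scaling does set the level of all genes together. Under 6 of 7 other ways to process or scale the arrays the median of all tested probes moved by less than 0.1 from that with the 75th percentile, whereas scaling to the spike-in probes, RNA of known amount added at labeling, raised it by 0.23. With this scaling *Bmf* reached 0.63 and *Bcl2l11* 0.59 and both were called, while *Bik* was at -0.19. Scaling by a factor per array leaves the distance of a gene from the median of all probes unchanged. Among the ways used here, only quantile normalization and normexp can move that distance. Relative to this median the changes varied less. *Bmf* lay 0.36 to 0.46 above it under all scalings, *Bcl2l11* 0.39 to 0.45, *Hrk* 0.32 to 0.37, *Bid* 0.21 to 0.28 and the brighter probe of *Bad* 0.23 to 0.24, and *Bik* lay at -0.42 to -0.37 and *Bbc3* at -0.25 to -0.14. No member changed its direction under any scaling.

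**Figure D2:**
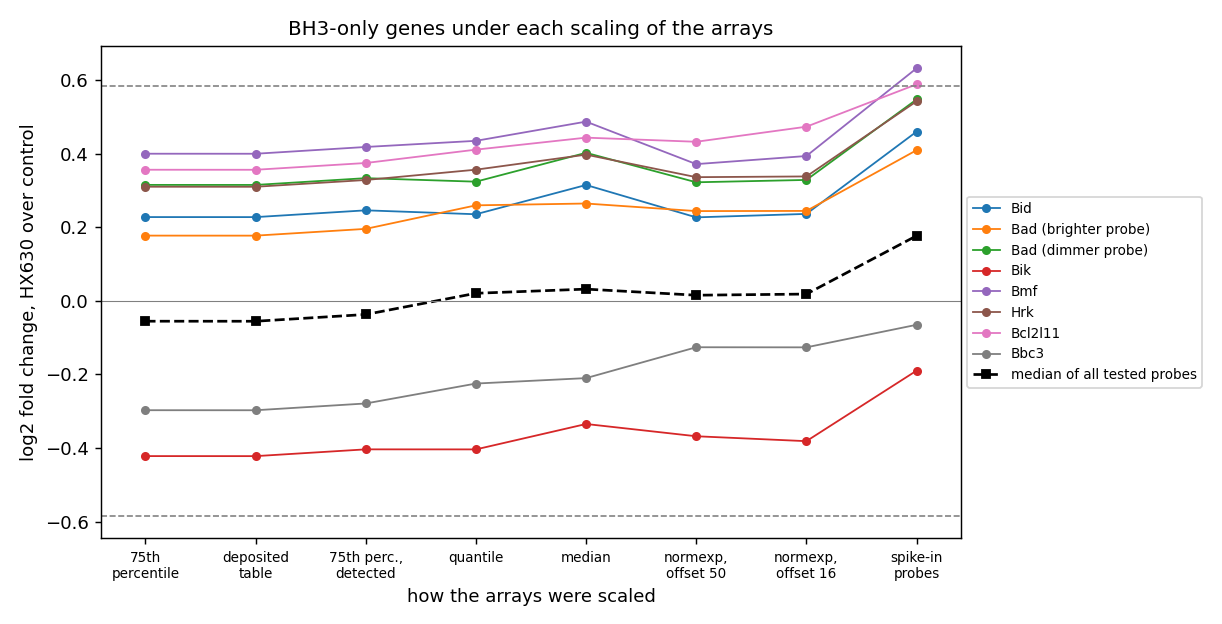
Log2 fold change, HX630 over control (vertical axis), of each BH3-only probe under 8 ways of scaling the arrays (horizontal axis). Colored lines are the probes, black squares are the median of all tested probes and dashed grey lines mark a fold change of 1.5. The probes kept their side of 0 under all 8, *Bmf* and *Bcl2l11* passed the upper dashed line only with spike-in scaling, where the median of all tested probes was also highest.

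Since 5 members rose together and *Bbc3* went the other way, their promoters were searched for the motifs of regulators described below. The windows reach from 250 bases before to 50 bases after a transcription start and were taken from RefSeq on GRCm38.p6. There were 12 windows for 6 members, namely *Bid*, *Bad*, *Bmf*, *Hrk*, *Bcl2l11* and *Bbc3*. *Bik* had no window in this set, and *Pmaip1* was not searched. Their GC content was 53.3% to 78% and they held 6 to 39 CpG dinucleotides, where the medians of all 32851 windows were 52.7% and 7. Each was searched on both strands for AGGTCA, the hexamer that RXR and its partner receptors bind, GTAAACA, the core bound by FOXO factors, TGATGNAA, bound by ATF4 and its partners, and CACGTG, the E-box of MYC. None of these motifs contains another. They were found in 16.3%, 3.65%, 3.97% and 7.15% of all windows of the same length. Among the 12 windows, AGGTCA was found in 1 (*Bmf*), GTAAACA in 2 (*Bcl2l11* and *Bbc3*), TGATGNAA in 1 (*Hrk*) and CACGTG in 1, another start of *Bbc3*. A match is only an identity of letters, not evidence of binding. One window with a match is shown for each of these 4 genes, written 5′ to 3′ on the strand of the gene, with the match in capitals. The windows are chr2:128125788-128126087 on the + strand for *Bcl2l11* (GTAAACA, -227 to -221 from the start), chr7:16310011-16310310 on the + strand for *Bbc3* (GTAAACA on the opposite strand, -167 to -161), chr2:118549637-118549936 on the - strand for *Bmf* (AGGTCA, -140 to -135) and chr5:118169514-118169813 on the + strand for *Hrk* (TGATGNAA, -114 to -107).
*Bcl2l11*: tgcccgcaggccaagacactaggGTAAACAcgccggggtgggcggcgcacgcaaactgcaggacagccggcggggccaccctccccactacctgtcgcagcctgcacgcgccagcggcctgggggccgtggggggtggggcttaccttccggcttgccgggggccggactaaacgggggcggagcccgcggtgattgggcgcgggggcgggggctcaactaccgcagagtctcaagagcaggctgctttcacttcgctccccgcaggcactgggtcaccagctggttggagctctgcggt
*Bbc3*: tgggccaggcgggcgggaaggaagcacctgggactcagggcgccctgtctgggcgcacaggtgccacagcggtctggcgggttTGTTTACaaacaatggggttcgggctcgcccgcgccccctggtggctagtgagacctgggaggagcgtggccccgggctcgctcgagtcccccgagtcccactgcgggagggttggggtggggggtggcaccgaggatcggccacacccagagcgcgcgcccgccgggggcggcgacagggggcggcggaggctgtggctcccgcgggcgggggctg
*Bmf*: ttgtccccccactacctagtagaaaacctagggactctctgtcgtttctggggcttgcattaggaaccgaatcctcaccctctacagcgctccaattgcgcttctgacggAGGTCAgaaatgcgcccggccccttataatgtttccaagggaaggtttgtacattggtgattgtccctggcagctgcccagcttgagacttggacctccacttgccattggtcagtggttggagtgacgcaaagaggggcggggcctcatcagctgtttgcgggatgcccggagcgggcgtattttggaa
*Hrk*: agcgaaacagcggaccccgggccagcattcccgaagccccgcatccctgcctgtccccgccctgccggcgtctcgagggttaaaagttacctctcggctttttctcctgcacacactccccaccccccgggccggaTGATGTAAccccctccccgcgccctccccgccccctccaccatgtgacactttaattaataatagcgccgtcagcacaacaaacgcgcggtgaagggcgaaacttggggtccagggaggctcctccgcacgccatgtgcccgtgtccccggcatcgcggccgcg

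The pro-survival proteins are the partners that BH3-only proteins bind. Of the 8 genes listed, 6 had a matched probe and 4 were tested, while *Bcl2a1d* and *Bcl2l10* were not detected on any array. One, *Bcl2l1*, was called higher and one, *Bcl2*, was called lower, and *Bcl2l2* and *Mcl1* fell by less than the fold threshold. *Bcl2l1*, which encodes BCL-xL, gave 3.64, 3.57, 3.67 and 3.73 in the control and 4.24, 4.39, 4.39 and 4.47 with HX630, and its log2 fold change of 0.72 ± 0.0581 (SE, adjusted p = 2.28e-05) was larger than that of any BH3-only gene. The second probe of *Bcl2l1* was at 0.78. *Bcl2* itself fell to 44.3% of the control, with -0.67, -0.94, -0.70 and -0.71 on the control arrays and -1.88, -1.96, -1.96 and -1.94 on the HX630 arrays (log2 fold change -1.18, adjusted p = 2.69e-06). *Mcl1*, whose protein is short-lived and is the main partner of NOXA, gave 3.98, 3.99, 4.03 and 4.05 in the control and 3.63, 3.65, 3.71 and 3.70 with HX630. It fell by 0.34 ± 0.0354 (SE on the log2 scale, adjusted p = 9.40e-05), and its other probe gave -0.42. *Bcl2l2*, which encodes BCL-w, fell by 0.32 ± 0.0532 (SE, adjusted p = 0.00122). All 4 genes had groups apart on every array.

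Of the 3 pore-forming genes on which the pathway converges, 1 was higher, 1 was lower and 1 did not pass the test. *Bax* had signals of 2.31, 2.18, 2.12 and 2.22 in the control and of 2.24, 2.19, 2.20 and 2.20 with HX630. The groups overlapped completely, and the log2 fold change was 0.0018 ± 0.0470 (SE, adjusted p = 0.977). *Bak1*, which encodes BAK, was at 0.36, 0.43, 0.35 and 0.44 in the control and at -0.10, -0.081, -0.055 and 0.020 with HX630, and fell by 0.45 ± 0.0408 (SE, adjusted p = 4.34e-05). *Bok*, a relative of both that is not held in check by the pro-survival proteins, rose by 1.16 ± 0.106 (SE, adjusted p = 4.61e-05) to 223% of the control, and was called. Its signals were 2.91, 3.07, 3.06 and 3.18 in the control and 3.95, 4.16, 4.32 and 4.42 with HX630. With scaling to the spike-in probes *Bax* passed the test (0.23, adjusted p = 0.00767), whereas *Bak1* (-0.22, adjusted p = 0.0421), *Mcl1* (-0.11, adjusted p = 0.230) and *Bcl2l2* (-0.089, adjusted p = 0.154) did not.

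**Figure D3:**
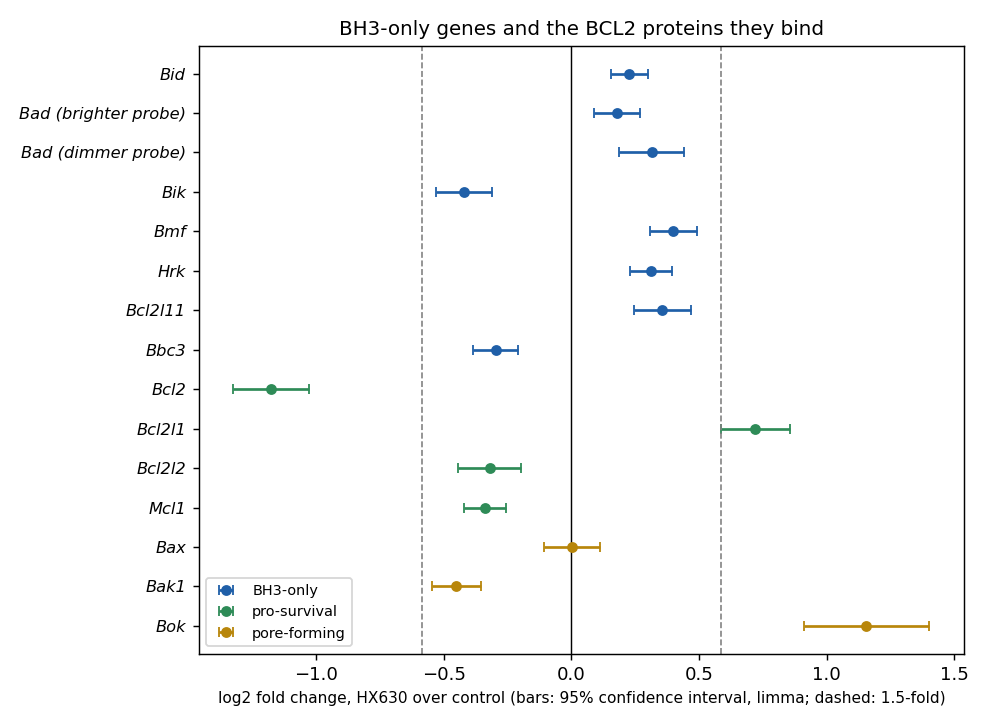
Log2 fold change, HX630 over control (horizontal axis), of the BH3-only probes (blue), the pro-survival genes (green) and the pore-forming genes (gold). Points are limma estimates from 4 arrays per group, bars are 95% confidence intervals and dashed lines mark a fold change of 1.5. All BH3-only intervals lie between the dashed lines, while *Bcl2* (-1.18), *Bcl2l1* (0.72) and *Bok* (1.16) lie outside them.

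The transcription factors known to drive BH3-only genes were lower rather than higher in most cases. Of 12 such genes, all tested, 1 was higher and 8 were lower by the adjusted p, and 3 of the 8 were called. With scaling to the median or to the spike-in probes, 4 of the 12 were lower. The median was -0.31. *Ddit3*, which encodes CHOP, an inducer of *Bcl2l11* and *Bbc3* in stress of the endoplasmic reticulum, gave 1.87, 2.11, 2.23 and 2.01 in the control and 0.44, 0.54, 0.56 and 0.49 with HX630. It fell by 1.55 on the log2 scale (adjusted p = 1.67e-06), to 34.2% of the control. *Atf3*, another factor of the stress response, fell to 35.3% of the control (adjusted p = 5.00e-07), and *Atf4* fell by 0.40 on the log2 scale. The fall of *Atf4* did not pass the test with quantile normalization, with scaling to the median or to the spike-in probes, or with normexp. With normexp and an offset of 50 it was at -0.086 (adjusted p = 0.101). *Myc* fell by 0.65 and was called, but not with scaling to the median or to the spike-in probes or with normexp, where it fell by 0.42 to 0.56.

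The p53 family and the FOXO and E2F factors complete this list. *Trp53* gave -0.94, -0.91, -0.63 and -0.53 in the control and -0.65, -0.52, -0.43 and -0.27 with HX630, so that the groups overlapped, and its log2 fold change of 0.29 did not pass the test (adjusted p = 0.0679). *Trp63* fell by 0.47, but did not pass the test with scaling to the median or to the spike-in probes (-0.23 with the latter, adjusted p = 0.0851). The probes of *Trp73* disagreed, with -0.46 for the brightest and 0.13 and 0.80 for the others, the last of which was called higher, and the mean of its probes was at 0.16. *E2f1*, a regulator of the cell cycle that can induce several BH3-only genes, was the one factor that rose (0.56, adjusted p = 8.58e-06), with 2.05, 2.14, 2.04 and 2.02 in the control and 2.64, 2.60, 2.60 and 2.67 with HX630. It was under the fold threshold here but above it with quantile normalization (0.63), with scaling to the median (0.65) or to the spike-in probes (0.80) and with normexp (0.73). *Foxo1* fell by 0.23, while *Foxo3* (0.13, adjusted p = 0.385) and *Foxo4* (0.11, adjusted p = 0.141) did not pass the test. *Foxo1* missed the adjusted p of 0.01 when control replicate 3 or 4 or HX630 replicate 1, 2 or 3 was left out. It also missed it with scaling to the median or to the upper quartile of detected probes, and without a filter on dim probes. *Jun* fell by 0.21. On scaling to the spike-in probes *Foxo1* was at 0.0062 and *Jun* at 0.025, neither past the test, and *Foxo4* passed it (0.34, adjusted p = 0.00200).

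BH3-only proteins are also controlled by modification, binding and cleavage. Of 23 genes for such modifiers, 10 were higher and 1 was lower by the adjusted p, 5 were called higher and none lower, and the median was 0.06. *Casp8*, the protease that cuts BID, rose by 0.63 ± 0.0381 (SE, adjusted p = 4.77e-06). *Btrc*, a subunit of the ubiquitin ligase that marks phosphorylated BIM for degradation, rose by 0.91 (adjusted p = 2.57e-06), and its other probe gave 0.56. *Mapk3*, which encodes the kinase ERK1 that phosphorylates BIM, rose by 0.82 (adjusted p = 1.77e-06) and by 0.76 on its other probe. The kinases of BAD *Akt1* (0.06, adjusted p = 0.315) and *Akt2* (-0.03, adjusted p = 0.517) did not pass the test, although *Akt1* did on scaling to the spike-in probes (0.29, adjusted p = 0.00215). *Dynll1*, the dynein light chain that tethers BIM, rose by 0.75 (adjusted p = 3.49e-06), but by 0.52, under the fold threshold, with normexp and an offset of 50. *Pim3*, for another kinase of BAD, fell by 0.54 (adjusted p = 3.78e-04), and *Ywhab* and *Ywhah*, adaptors that sequester phosphorylated BAD, rose by 0.38 and 0.27.

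Other proteins carry a BH3-like motif but serve mainly in mitophagy or have less certain roles in cell death. Of 6 such genes, 2 were higher and 2 were lower by the adjusted p. *Bnip3*, a mitophagy receptor induced by hypoxia, fell to 16.6% of the control, with means of 6.50 ± 0.0850 (SD, n = 4) and 3.90 ± 0.103 (SD, n = 4) and a log2 fold change of -2.59 ± 0.0650 (SE, adjusted p = 1.23e-07). Its other probes gave -2.65 and -2.44. *Bnip3l*, its close relative, fell by 0.81 (adjusted p = 8.12e-06), and by 0.70 to 0.79 on its other probes. It was not called on scaling to the spike-in probes, where it fell by 0.58. *Bcl2l14* rose by 0.86 (adjusted p = 1.57e-04), while a second probe was at 0.36 (adjusted p = 0.223), and with normexp and an offset of 50 it was not called (0.53).

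Downstream of the mitochondrion, 5 of 11 genes were higher and 3 were lower by the adjusted p, and 3 of the 5 were called. One of them was the initiator caspase *Casp9*, with means of 0.066 ± 0.0386 (SD, n = 4) in the control and 0.81 ± 0.0487 (SD, n = 4) with HX630. Its log2 fold change was 0.74 ± 0.0385 (SE, adjusted p = 2.10e-06), and every HX630 array was above every control array. *Apaf1*, the scaffold on which cytochrome c and this caspase meet, did not pass the test (-0.04, adjusted p = 0.649). *Cycs*, for cytochrome c itself, fell by 0.42 (adjusted p = 2.58e-05), and the membrane channels *Vdac1* and *Vdac2* fell by 0.33 and 0.28. With scaling to the spike-in probes none of these 3 passed the test. *Vdac1* did not pass it with normexp either, where it was at -0.0088 with an offset of 50 (adjusted p = 0.889). *Diablo* rose by 0.23 (adjusted p = 0.00215).

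**Figure D4:**
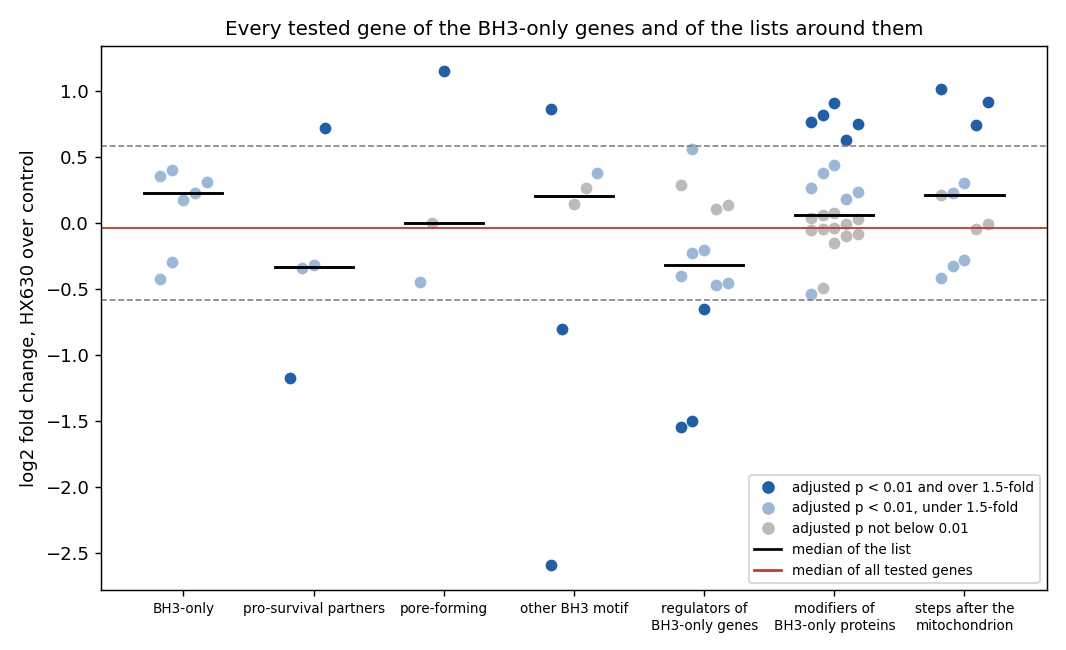
Log2 fold change, HX630 over control (vertical axis), of every tested BH3-only gene and of every tested gene of the 6 lists around them (horizontal axis), with the brightest tested probe for each gene. Dark blue points passed both thresholds, light blue points passed the adjusted p alone and grey points passed neither, short black lines are list medians, the red line is the median of all tested genes (-0.03) and dashed lines mark a fold change of 1.5. The 7 BH3-only genes lie between -0.42 and 0.40, while called genes of the other lists range from -2.59 (*Bnip3*) to 1.16 (*Bok*).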

How the data were processed

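Total RNA of 4 control and 4 HX630 samples was hybridized to 1-color Agilent mouse arrays. The authors deposited the Feature Extraction 10.7.3.1 output of each array, whose intensity values are background-subtracted and spatially detrended. They also deposited a table of log2 values made in GeneSpring, which matched the log2 processed intensity minus the 75th percentile of each array (median absolute difference 9.86e-04).

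In R 4.3.3, control spots (1377 of 44397) and outlier spots were left out, spots of a probe were averaged, and log2 signals were reduced by the 75th percentile of the array. Testing was limited to the 28553 of 39429 probes that 4 or more of the 8 arrays measured well above background. The groups were compared with limma 3.58.1 over all tested probes, with p-values adjusted by the Benjamini-Hochberg method, with calls made where the adjusted p was below 0.01 and the fold change over 1.5. A gene is represented by its brightest tested probe. Probes were named through their RefSeq accession (26055 matched) in a gene table on GRCm38.p6. The array was designed on another build, so that no probe coordinates are given. Precision rests on 4 arrays per group. The limma and t-test fits were tested on simulated data.

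The named genes are all 8 members, the called genes of each list and every tested pro-survival and pore-forming gene, and other genes of the lists were named after their values were seen. Some genes of the lists are counted but not reported here by name. The members and the lists, written from general knowledge, were chosen with earlier results of these data known, and lists are described by counts and medians without a test. The rule for genes of similar pattern applied to called members only and named none. The alternatives were 7 other scalings or background corrections, filters on dim probes, outlier spots, variance models, array weights, the methods' t-test, thresholds, the mean of probes, a block for the replicate number and omission of single arrays. Normexp used the median spot intensity.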

Additional observations from a re-analysis of the deposited data

Results flagged for a closer look

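*Bcl2*, the pro-survival partner with the largest change, had a control array apart from the other 3. Control replicate 2 was at -0.94, where the mean of the other control arrays was -0.70, and the gap to its neighbor was 0.832 of the range of the 4 control arrays. Without it the log2 fold change of *Bcl2* was -1.24. It was the single case among 54 groups of 4 arrays examined, and chance gives about 2.7.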

How the results depend on the processing

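The fold changes of the tested members and of the tested genes named from the lists around them were recomputed under 28 alternatives. The difference between the *Bad* probes was recomputed under 11, and the cell type markers were left out. None of the alternatives reversed the direction of a BH3-only gene. Among the regulators, *Foxo1* (0.0062) and *Jun* (0.025) turned on scaling to the spike-in probes and *Trp73* (0.16) with the mean of its probes. Scaling to the spike-in probes called 2 members higher (*Bmf* and *Bcl2l11*), and dropping the fold threshold called 5 higher and 2 lower. By the adjusted p alone, 1 member instead of 2 was lower with spike-in scaling and with normexp at an offset of 50 or 16, which is *Bik*, since *Bbc3* was at -0.065 (adjusted p = 0.389), -0.13 (0.0749) and -0.13 (0.0860). For the brighter probe of *Bad* the log2 fold change of 0.18 missed the test without a filter on dim probes (adjusted p = 0.0124) and with the replicate number as a block (adjusted p = 0.0130), and ranged from 0.16 to 0.20 when 1 array was left out. Without a fold threshold, 20 genes of the other lists were called higher and 18 lower, against 11 and 6. The other members kept their side of the adjusted p in every alternative. Deviations of arrays with the same replicate number had correlations of 0.520, -0.012, 0.239 and 0.382, and the highest was with the own number in 2 of 4. The labels do not say whether samples of the same number belong together, and these correlations cannot decide it. The replicate block called 5556 probes in place of 5313 and changed no other member, but *Trp53* passed the adjusted p with it (0.00397). The cause of these shifts was not tested. Signals near background limit *Pmaip1*, and the design holds 0 slides with both groups.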
